A study of Homo sapiens with 10 samples.

Results

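The comparison described here sets MDA-MB-435 cells kept with hepatocyte growth factor (HGF) for 24 h against the same cells after 1 h with HGF. It was made directly between the 2 arrays of HGF 24 h and the 2 arrays of HGF 1 h, chosen by their titles, which are 4 of the 10 Affymetrix hgu133a arrays of the series. The other arrays hold cells after 6 h with HGF, untreated cells and cells transduced with ITGB4, 2 arrays each. They entered the estimate of the spread within groups, and the HGF 6 h and untreated arrays are given beside the comparison where they show the course of a gene. All groups are the same human melanoma line under standard growth conditions, none of the HGF groups carries a transgene, the HGF dose is not given in the sources used here, and the study calls the arrays of a group biological duplicates. The sources used here give no harvest time for the untreated cells and name none as matched to the 1 h or the 24 h cells. Time in culture and time with HGF therefore cannot be told apart.

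HGF is the ligand of MET, a receptor tyrosine kinase whose activation drives growth, motility and invasion through the ERK and PI3K pathways and, in part, NF-kB. Such receptors switch on immediate-early genes, transcription factors and signalling inhibitors made without new protein synthesis, whose short-lived mRNAs commonly return towards the starting level within hours. Feedback genes of the same response, among them the DUSP phosphatases and Sprouty proteins, dampen ERK signalling.

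Values are log2 RMA values as the authors deposited them, in which a difference of 1 is a doubling. They ran from 2.19 to 14.28, and array medians lay between 6.81 and 6.88. Of 22215 probe sets other than controls, 10176 reached 7.3 in at least 2 of the 10 arrays and were tested. Those annotated with a single gene symbol cover 6390 genes, and the brightest of a gene's tested probe sets, by its mean over the arrays, was read for it. The SD over probe sets of the difference between the 2 replicates was 0.259 at 24 h and 0.277 at 1 h, against 0.179 at 6 h, 0.281 in ITGB4-transduced cells and 0.195 in untreated cells. On the first principal component, which held 41.8% of the variance, the arrays lay at 10.95 and 16.27 at 24 h and at 26.2 and 15.9 at 1 h, so that HGF 1 h replicate 1 lay farthest out and the other 3 close together. The second component, with 27.1% of the variance, had the 24 h arrays at 12.68 and 2.29 and the 1 h arrays at -12.33 and -8.84, and separated the times. HGF 1 h replicate 2 correlated at 0.973 and 0.985 with the 24 h arrays and at 0.981 with HGF 1 h replicate 1. SOX10 measured 11.64 and 11.63 at 24 h and 11.61 and 11.61 at 1 h, 14 of 17 melanocyte markers passed the filter, and so did 3 of 20 epithelial and 5 of 15 fibroblast markers.

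The upstream sequences of 3 genes are shown because these genes mark both ends of the comparison. Among genes with a single symbol, EGR1 and RHOB had the largest differences towards lower values at 24 h, and ASPM had the largest towards higher values. A tested probe set without a single gene symbol had a difference of -1.53, which lay between those of EGR1 and RHOB. The sequences come from RefSeq on GRCh38.p14, are the 150 bases just before each annotated start, and run 5′ to 3′ on the strand of the gene. They lie at chr5:138465329-138465478 on the plus strand for EGR1, chr2:20446924-20447073 on the plus strand for RHOB and chr1:197146670-197146819 on the minus strand for ASPM. Capitals mark CArG boxes, the element known to bind serum response factor, and CCAAT or its reverse complement ATTGG.
EGR1: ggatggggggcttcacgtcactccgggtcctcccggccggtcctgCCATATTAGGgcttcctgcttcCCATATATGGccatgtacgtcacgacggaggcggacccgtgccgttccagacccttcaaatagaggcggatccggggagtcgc
RHOB: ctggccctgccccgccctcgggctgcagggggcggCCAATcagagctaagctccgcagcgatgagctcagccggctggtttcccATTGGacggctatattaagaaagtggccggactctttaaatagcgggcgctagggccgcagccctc
ASPM: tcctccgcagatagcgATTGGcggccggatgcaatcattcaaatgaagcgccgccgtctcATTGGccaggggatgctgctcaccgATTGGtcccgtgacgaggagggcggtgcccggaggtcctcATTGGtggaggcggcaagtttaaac
The EGR1 window held 2 CArG boxes, the RHOB window 2 CCAAT motifs and the ASPM window 4, counted on both strands. In the 250 bases before the start, 1.16% of 35116 RefSeq promoters held a CArG box and 32.0% held CCAAT. Among measured genes with an entry, a CArG box stood before 2 of 21 immediate-early genes, EGR1 and SRF, and before 0 of 54 G2 and M phase genes. CCAAT stood before 12 of these 21 and 41 of these 54 genes. Genes can have several promoters. A listed gene was counted once, with the motif if any of its promoters held it, whereas the background counts every promoter. The shares are therefore not like measures, and a match of letters is a description of the window.

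Few single probe sets could be told apart between 24 h and 1 h with 2 arrays on each side. In the limma fit 1 probe set was higher at 24 h and 0 were lower at an adjusted p under 0.05, which is 0.00983% of the probe sets tested. At an unadjusted p under 0.05 there were 1492 probe sets, or 14.7%, of which 765 were higher and 727 lower. That share is larger than the threshold itself, so the few calls do not show that the times were alike. The second-lowest adjusted p was 0.0607, and 26 probe sets had an adjusted p under 0.1, with 23 of them higher at 24 h. The median difference over genes was -0.04 and its quartiles were -0.16 and 0.11. A difference above 0.5 was seen in 272 genes and one below -0.5 in 106, so the larger differences were mostly towards higher values at 24 h while the median lay slightly below 0. With 2 arrays against 2 an exact two-sided permutation test of a single gene cannot give a p under 0.333.

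**Figure D1:**
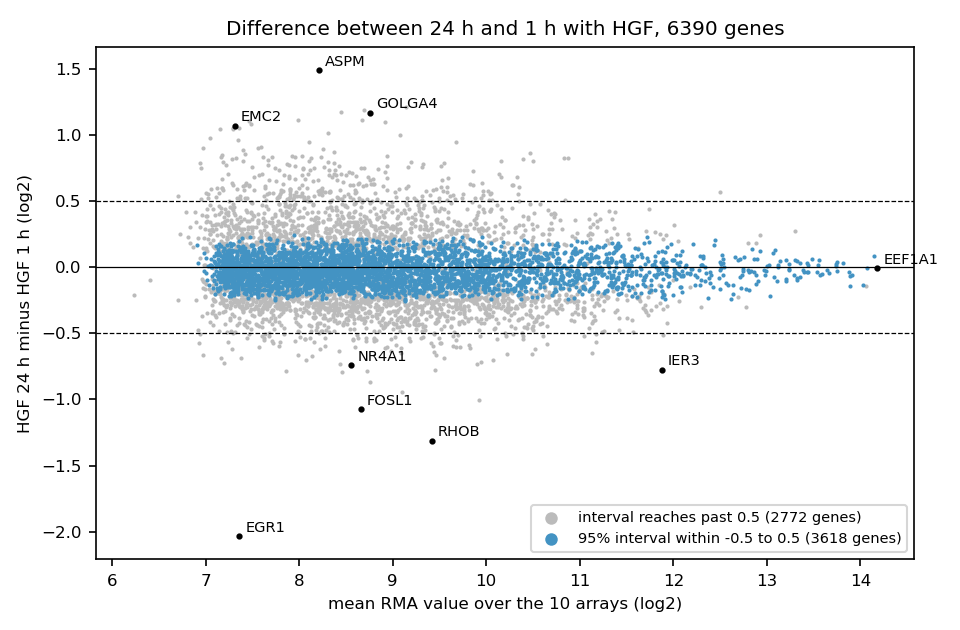
Each point is 1 of 6390 genes, with its mean RMA value over the 10 arrays (log2) across and the difference HGF 24 h minus HGF 1 h (log2) up. Blue genes have a 95% interval of the difference within -0.5 to 0.5 (3618 genes), dashed lines mark that margin, and EGR1 at -2.03 and ASPM at 1.49 lie farthest out.

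The called probe set belongs to MBNL1, which encodes a muscleblind RNA-binding protein that regulates alternative splicing. It measured 6.37 and 6.28 at 24 h, against 5.27 and 5.17 at 1 h. The difference was 1.11 (SE 0.12, 95% interval 0.84 to 1.38, limma adjusted p 0.0207). MBNL1 in untreated cells measured 6.28 and 6.45 with this probe set, and 6.41 and 6.45 at 6 h, so the 1 h arrays were the low ones. Both compared means lay under the filter value of 7.3, which the probe set passed only through the ITGB4 arrays at 7.73 and 7.54, so the size of the difference is not exact. Its adjusted p was 0.0538 without either untreated array, 0.0879 without either 6 h array, 0.177 and 0.0639 without HGF 1 h replicate 1 and replicate 2, and 0.416 and 0.0507 without HGF 24 h replicate 1 and replicate 2, so the call rested on each of these arrays. The brighter MBNL1 probe sets were also above at 24 h, by 0.64 (9.95 and 9.88 at 24 h, 8.99 and 9.57 at 1 h, adjusted p 0.163) and 0.71 (9.01 and 8.90 at 24 h, 8.18 and 8.32 at 1 h, adjusted p 0.122), and neither passed the test.

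Because so few genes passed the test, gene groups are described by how many members had both 24 h arrays on the same side of both 1 h arrays. Over all 6390 genes this held for 1081 genes with the 24 h arrays above (16.9%) and for 1492 genes with them below (23.3%), and these shares are the background for every list. All counts of members are read beside them, and no member of the lists passed the limma test at the gene's chosen probe set (0 of 6390 genes, with 497 higher and 503 lower at an unadjusted p under 0.05). The lists were written with earlier results of these data known, so a share unlike the background describes them and is not independent support.

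Immediate-early regulators lay on the lower side at 24 h. Of 36 listed genes 27 were measured, 15 had both 24 h arrays below both 1 h arrays and 1, CEBPD, had them above. Their median difference was -0.24, and 22 of the 27 differences were negative. EGR1, a zinc finger transcription factor of the early growth response, measured 6.10 and 6.33 at 24 h, against 8.57 and 7.91 at 1 h. Its difference of -2.03 was the largest of all genes (SE 0.50, limma adjusted p 0.125). Untreated cells had 7.78 and 7.28 and the 6 h arrays 8.44 and 7.66, so EGR1 at 24 h was under every other array of the untreated and HGF groups. The ITGB4-transduced duplicates, however, measured 7.73 and 5.77, and the lower of these lay under both 24 h arrays. The 24 h mean lay under the filter value, and a dimmer EGR1 probe set that did not pass the filter had means of 6.77 at 24 h and 7.02 at 1 h.

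RHOB, a small GTPase whose mRNA is rapidly inducible, measured 8.81 and 8.82 at 24 h, against 10.16 and 10.08 at 1 h. The difference of -1.31 (SE 0.19, limma adjusted p 0.0607) was several times the spread within either group. Untreated cells had 9.20 and 8.98 and the 6 h arrays 9.56 and 9.71. FOSL1, which encodes the AP-1 subunit FRA-1, measured 7.75 and 7.93 at 24 h, against 8.84 and 8.98 at 1 h, a difference of -1.07 (SE 0.23, adjusted p 0.108). Its 6 h arrays, at 9.74 and 10.07, were the highest of the HGF and untreated arrays. NR4A1, an orphan nuclear receptor, measured 8.36 and 8.42 at 24 h, against 9.05 and 9.22 at 1 h, a difference of -0.74 (SE 0.13, adjusted p 0.0838). Untreated cells stood close to the 24 h arrays, at 8.46 and 8.50. The other kept NR4A1 probe sets gave smaller differences of -0.06 and -0.38.

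Further members on the same side included the stress-responsive IER3, with 11.28 and 11.82 at 24 h and 12.22 and 12.43 at 1 h. IER2 measured 9.88 and 9.93 at 24 h, against 10.68 and 10.44 at 1 h. The AP-1 subunit JUNB measured 8.29 and 8.47 at 24 h, against 8.95 and 8.91 at 1 h. In each the groups did not overlap, and the differences were -0.77, -0.65 and -0.55. The AP-1 subunit JUN measured 8.31 and 8.79 at 24 h and 9.02 and 9.10 at 1 h, a difference of -0.51. SRF, the factor that binds CArG boxes, measured 8.06 and 8.04 at 24 h and 8.39 and 8.49 at 1 h, and the kinase SGK1 10.81 and 10.82 at 24 h and 11.09 and 11.35 at 1 h. Adjusted p-values of these 6 genes ran between 0.106 and 0.266. Other well-known members did not separate. FOS measured 7.98 and 7.76 at 24 h and 7.87 and 7.86 at 1 h, with a 95% interval of -0.62 to 0.63. MYC measured 10.58 and 10.35 at 24 h and 10.58 and 10.22 at 1 h, with an interval of -0.28 to 0.40 that lay within the margin of 0.5. CEBPD, a C/EBP transcription factor, had 9.04 and 8.98 at 24 h and 8.73 and 8.54 at 1 h, a difference of 0.37 (adjusted p 0.575), and its untreated arrays spread from 7.58 to 8.65.

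The feedback genes of ERK signalling showed a mixed picture. Of 11 measured, 5 had both 24 h arrays below both 1 h arrays and 0 had them above, with a median difference of -0.13. SPRY4, a Sprouty inhibitor of receptor tyrosine kinase signalling, measured 8.69 and 8.70 at 24 h, against 9.31 and 9.30 at 1 h (difference -0.61, SE 0.14, adjusted p 0.122). The phosphatase gene DUSP2 measured 7.32 and 7.23 at 24 h, against 7.92 and 7.73 at 1 h. DUSP5 measured 6.84 and 7.10 at 24 h and 7.39 and 7.33 at 1 h, and was called higher at 6 h, at 7.96 and 8.17. In contrast, DUSP4 measured 8.19 and 8.67 at 24 h and 8.39 and 8.45 at 1 h, alike within 0.5, while its 6 h arrays stood at 9.21 and 9.54. DUSP6, an ERK-specific phosphatase, measured 7.90 and 7.93 at 24 h and 8.07 and 7.53 at 1 h, and untreated cells were above both at 8.61 and 8.37.

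NF-kB subunits, inhibitors and targets lay lower at 24 h in 8 of 11 measured genes and higher in 0, with a median difference of -0.33. The inhibitor gene NFKBIA, itself a target of NF-kB, measured 9.25 and 9.28 at 24 h, against 9.82 and 9.90 at 1 h (difference -0.59, SE 0.14, adjusted p 0.125). TNFAIP3, a ubiquitin-editing inhibitor also known as A20, measured 8.61 and 8.33 at 24 h, against 9.22 and 9.00 at 1 h. The subunit genes NFKB1, NFKB2 and RELB had differences of -0.37, -0.38 and -0.33, and the inhibitor genes NFKBIE and NFKBIB -0.41 and -0.27. RELA, whose product is the main transactivating subunit, measured 9.85 and 10.03 at 24 h and 10.25 and 9.93 at 1 h, overlapping and alike within 0.5. The chemokine CXCL8 was far below the filter value in both groups (5.77 and 5.55 at 24 h, 5.91 and 5.84 at 1 h) and was called higher at 6 h, at 7.53 and 7.59. Single arrays moved these medians. For immediate-early and growth factor-induced regulators leaving out HGF 1 h replicate 1 gave -0.15 and HGF 24 h replicate 2 gave -0.38. For the ERK feedback phosphatases and Sprouty family leaving out HGF 1 h replicate 1 gave -0.07, HGF 1 h replicate 2 gave -0.22, HGF 24 h replicate 1 gave -0.04 and HGF 24 h replicate 2 gave -0.24. For NF-kB subunits, inhibitors and targets it was -0.23 without HGF 1 h replicate 1, and -0.16 without the filter.

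**Figure D2:**
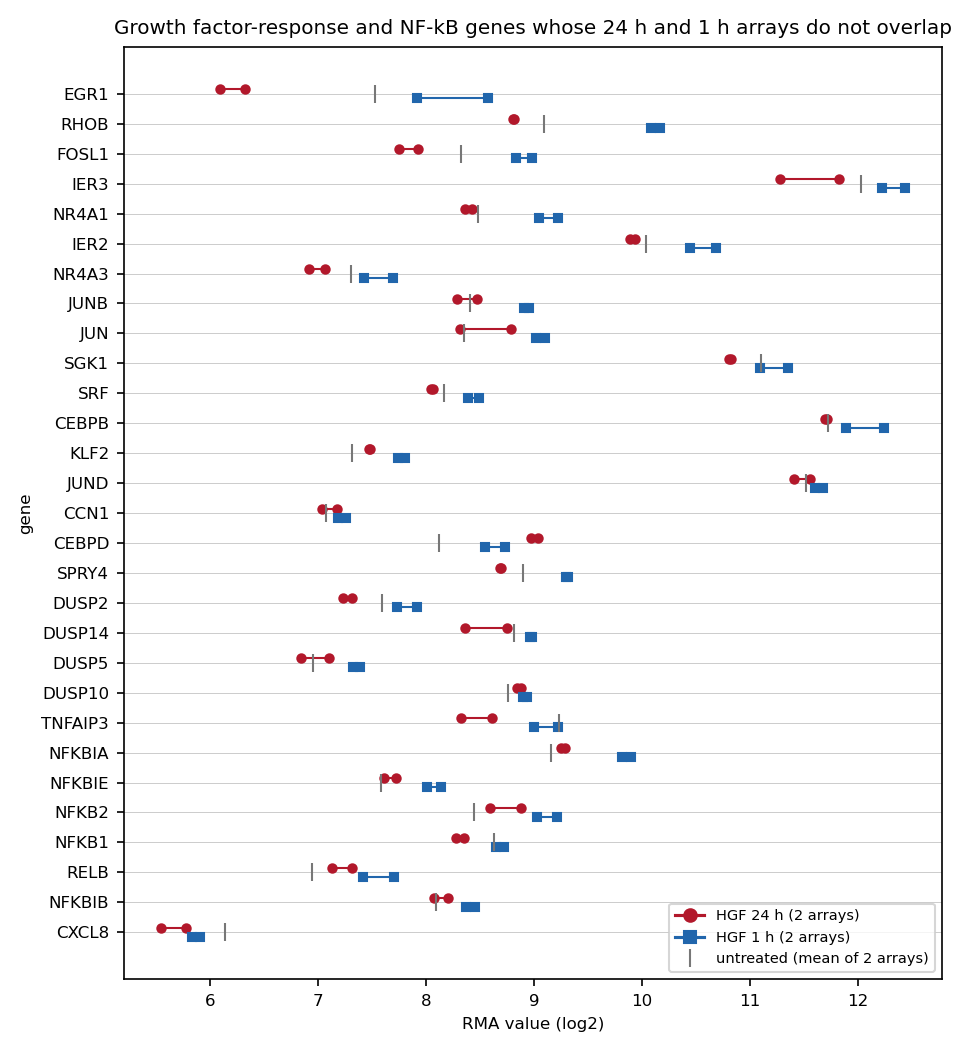
Log2 RMA values of the immediate-early, ERK feedback and NF-kB genes whose 2 HGF 24 h arrays (red circles) and 2 HGF 1 h arrays (blue squares) do not overlap, in 1 row per gene and with the untreated mean as a grey tick. In 28 genes the 24 h arrays lie below the 1 h arrays, and in CEBPD they lie above.

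On the other side stood genes of large coiled-coil proteins, of chromatin regulators and of mitosis. Of 26 measured golgin, centrosome and endosome coiled-coil genes, 16 had both 24 h arrays above both 1 h arrays and 1 had them below, and the median difference was 0.41. GOLGA4, a golgin that tethers vesicles at the trans-Golgi, measured 9.17 and 8.54 at 24 h, against 7.38 and 7.99 at 1 h (difference 1.17, SE 0.26, adjusted p 0.122). GCC2, another trans-Golgi tether, measured 8.07 and 7.37 at 24 h, against 6.43 and 6.80 at 1 h (difference 1.11, SE 0.24, adjusted p 0.108). RB1CC1, a subunit of the complex that starts autophagy, measured 9.44 and 9.13 at 24 h, against 8.03 and 8.53 at 1 h (difference 1.00, SE 0.20, adjusted p 0.106). In untreated cells GOLGA4 had 9.20 and 9.22 and RB1CC1 9.51 and 9.40. HGF 24 h replicate 1 was close to these values in both genes, whereas replicate 2 lay lower, at 8.54 for GOLGA4. The 1 h arrays were the low ones, and HGF 1 h replicate 1 was the lowest in each. Members that stayed alike included the Golgi gene GOLGA1, the centrosomal scaffold genes PCNT and CEP250 and the ribosome receptor gene RRBP1, whose differences were -0.01, 0.01, 0.00 and 0.02.

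The list of chromatin architecture and long-gene chromatin regulators followed the same pattern. It had 16 of 30 measured members above at 24 h, 1 below and a median difference of 0.29. ATRX, a chromatin remodeller that deposits histone H3.3 at repeats, measured 9.14 and 8.59 at 24 h, against 7.43 and 7.93 at 1 h (difference 1.19, SE 0.23, adjusted p 0.103). ARID4B, a subunit of a histone deacetylase complex, measured 7.57 and 7.37 at 24 h, against 6.42 and 6.42 at 1 h, a difference of 1.06. HMGB1, an abundant DNA-bending protein, measured 12.36 and 12.47 at 24 h, against 11.85 and 11.83 at 1 h, a difference of 0.57. NIPBL and STAG2, which load and form cohesin, had differences of 0.66 and 0.62. Another kept probe set of each gave larger ones, of 0.93 and 0.99. HMGN4, CHD4 and SMARCA2 stayed alike, with differences of 0.02, 0.16 and -0.04.

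Among G2 and M phase genes 25 of 63 measured were above at 24 h and 1 was below, with a median difference of 0.27. ASPM, which organises the mitotic spindle poles, measured 8.37 and 8.07 at 24 h, against 6.18 and 7.28 at 1 h (difference 1.49, SE 0.36, adjusted p 0.125). Its untreated arrays had 8.56 and 9.11 and its 6 h arrays 8.49 and 8.62. For ASPM the 1 h arrays were thus the low ones, and the 24 h arrays did not rise above untreated cells. TTK, the spindle checkpoint kinase MPS1, measured 8.85 and 8.83 at 24 h, against 7.25 and 8.19 at 1 h (difference 1.12, SE 0.27, adjusted p 0.125). The condensin subunit genes SMC2 and SMC4, the kinesin gene CENPE and the cytokinesis gene ECT2 had differences of 0.90, 0.82, 0.85 and 0.78. In all of these HGF 1 h replicate 1 was the lowest of the 4 arrays. Other mitotic genes overlapped. PLK1 measured 9.11 and 9.91 at 24 h and 9.11 and 9.47 at 1 h, and CKS2 10.19 and 10.59 at 24 h and 10.41 and 10.37 at 1 h, alike within 0.5. DNA replication and S phase genes had 2 of 50 measured members above, 3 below and a median difference of -0.12. Leaving out HGF 24 h replicate 1 gave 0.16, HGF 24 h replicate 2 gave -0.39, HGF 1 h replicate 1 gave -0.19 and HGF 1 h replicate 2 gave -0.06, and cyclic loess gave -0.07, so the median had no stable direction.

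Single arrays moved these lists. As the median over members of the deviation from the mean of the 4 arrays, the 24 h arrays stood at -0.08 and 0.28 and the 1 h arrays at -0.33 and 0.05 for G2 and M phase genes. For the coiled-coil genes the 24 h arrays stood at 0.41 and 0.07 and the 1 h arrays at -0.37 and -0.07. The replicates of a group thus differed by about as much as the groups did. Without HGF 1 h replicate 1 the median difference of G2 and M phase genes was 0.08, that of chromatin architecture and long-gene chromatin regulators 0.13 and that of golgin, centrosome and endosome coiled-coil proteins 0.27. Without HGF 24 h replicate 2 the median of G2 and M phase genes was 0.05 and that of the coiled-coil genes 0.67. The median of G2 and M phase genes was 0.41 without either HGF 24 h replicate 1 or HGF 1 h replicate 2. Signs were kept in each of the 25 alternatives tried for the coiled-coil, chromatin and G2 and M phase lists. Only other filters, other scalings, gene means and leaving out a compared array can move such a median. The remaining alternatives could not change a sign. Whether the 3′ to 5′ balance of RNA entered these values was not tested. The log2 difference of the 3′ and 5′ control probe sets was -0.09 and -0.33 at 24 h and -0.27 and -0.42 at 1 h for ACTB, and -0.14 and -0.02 at 24 h and -0.10 and -0.10 at 1 h for GAPDH.

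Single genes outside the lists described so far had the smallest p-values among the remaining differences. Some belong to other lists, such as NDUFA5 to the respiratory chain subunits. SLC35A1, the Golgi transporter of CMP-sialic acid, measured 7.44 and 7.40 at 24 h, against 6.59 and 6.62 at 1 h (difference 0.82, SE 0.12). EMC2, a subunit of the endoplasmic reticulum membrane protein complex, measured 7.75 and 7.34 at 24 h, against 6.30 and 6.64 at 1 h, a difference of 1.07. SEMA3C, a secreted semaphorin, measured 7.61 and 7.18 at 24 h, against 6.38 and 6.31 at 1 h, a difference of 1.05. NDUFA5, a subunit of respiratory complex I, measured 7.37 and 7.02 at 24 h, against 6.29 and 6.00 at 1 h, a difference of 1.04. These 4 genes shared the adjusted p of 0.0607, and their 1 h means, and for NDUFA5 the 24 h mean too, lay under the filter value. In untreated cells they had between 7.34 and 7.78, next to the 24 h arrays. The nuclear pore scaffold gene TPR, the DNA polymerase zeta gene REV3L and the zinc finger genes ZNF638 and ZNF292 had differences of 1.10, 1.11, 1.18 and 1.08. The cell cycle inhibitor CDKN1B (p27) measured 7.54 and 7.70 at 24 h, against 6.60 and 7.02 at 1 h, a difference of 0.81. The integrin gene ITGB1 measured 11.07 and 10.90 at 24 h, against 10.36 and 10.59 at 1 h, a difference of 0.51, and ITGAV had a difference of 0.59.

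Ribosome biogenesis factors had 15 of 33 measured genes below at 24 h and 1 above, with a median of -0.18, and 26 of the 33 were called higher at 6 h, where 15.3% of all genes were. NOP16, a nucleolar protein, measured 9.18 and 9.36 at 24 h, against 10.02 and 9.96 at 1 h (difference -0.72, SE 0.20, adjusted p 0.157), and 10.75 and 11.03 at 6 h. URB2, another nucleolar ribosome factor, measured 6.61 and 6.80 at 24 h, against 7.38 and 7.39 at 1 h (adjusted p 0.0958). Leaving out HGF 24 h replicate 1 moved the median of ribosome biogenesis factors to -0.08, and leaving out HGF 24 h replicate 2 moved it to -0.29.

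Cholesterol and fatty acid synthesis genes had 12 of 26 measured members below at 24 h and 2 above, with a median of -0.12. The median for cholesterol and fatty acid synthesis was -0.26 without HGF 1 h replicate 2 and -0.06 with cyclic loess. FASN, the fatty acid synthase, measured 10.97 and 11.11 at 24 h, against 11.60 and 11.42 at 1 h, a difference of -0.47 (adjusted p 0.166). INSIG1, which restrains sterol synthesis, measured 10.14 and 9.99 at 24 h, against 10.54 and 10.45 at 1 h. Aminoacyl-tRNA synthetases had 8 of 16 above and 2 below, with a median over aminoacyl-tRNA synthetases of 0.12 that became -0.0026 with HGF 1 h replicate 2 left out, and 0.20 with replicate 1 left out. AARS1, the alanyl-tRNA synthetase, measured 11.21 and 11.39 at 24 h, against 10.41 and 10.59 at 1 h, a difference of 0.80 (SE 0.18, adjusted p 0.122). MAT2A, which makes S-adenosylmethionine, measured 8.22 and 7.98 at 24 h, against 8.94 and 9.15 at 1 h, a difference of -0.95 (adjusted p 0.227), and 10.62 and 10.50 at 6 h.

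**Figure D3:**
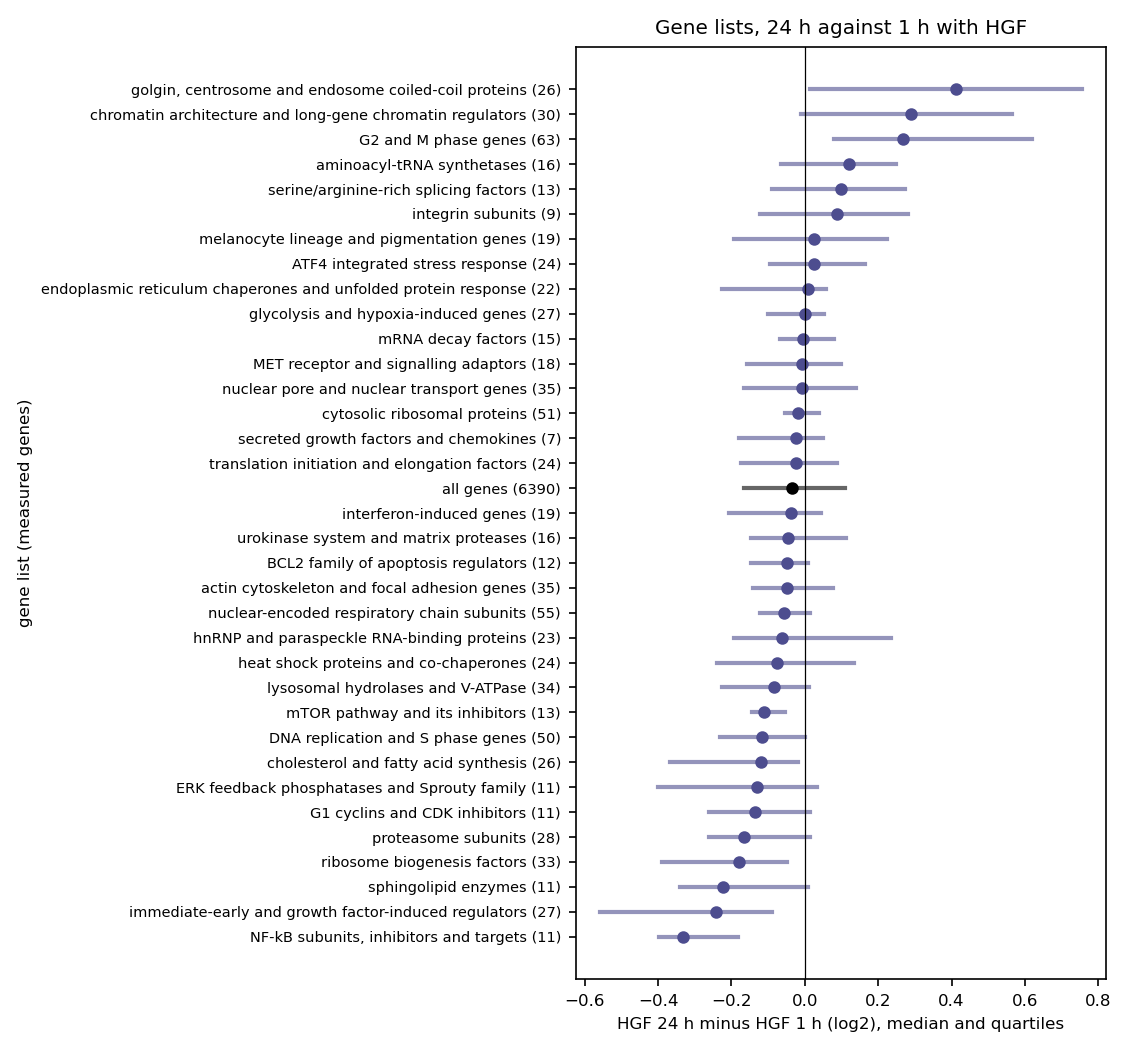
Median (point) and quartiles (line) of the difference HGF 24 h minus HGF 1 h (log2) over the measured genes of 34 lists, with all 6390 genes in black and the number of measured genes in brackets. Coiled-coil, chromatin and G2 and M phase genes lie highest, at medians of 0.41, 0.29 and 0.27, and NF-kB and immediate-early genes lowest, at -0.33 and -0.24.

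The side on which a gene lay went with its genomic span, the length from the first to the last annotated base. Genes with a difference above 0.5 had a median span of 64.8 kb and genes with one below -0.5 a median of 11.8 kb, against 29.2 kb over all genes. The median difference was -0.11 in 579 genes under 5 kb and 0.07 in 350 genes over 200 kb. Under 5 kb, leaving out HGF 24 h replicate 1 gave -0.06 and HGF 24 h replicate 2 gave -0.18, and over 200 kb, leaving out HGF 1 h replicate 2 gave 0.03. Both 24 h arrays lay above both 1 h arrays in 4.32% of the shortest class and 30.9% of the longest, and below in 36.4% and 11.4%. The replicates differed with span as well. The median of HGF 24 h replicate 1 minus replicate 2 was -0.14 in the shortest class and 0.02 in the longest, and that of HGF 1 h replicate 1 minus replicate 2 was 0.07 and 0.02. The part of span, array or RNA quality in the difference was not tested.

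**Figure D4:**
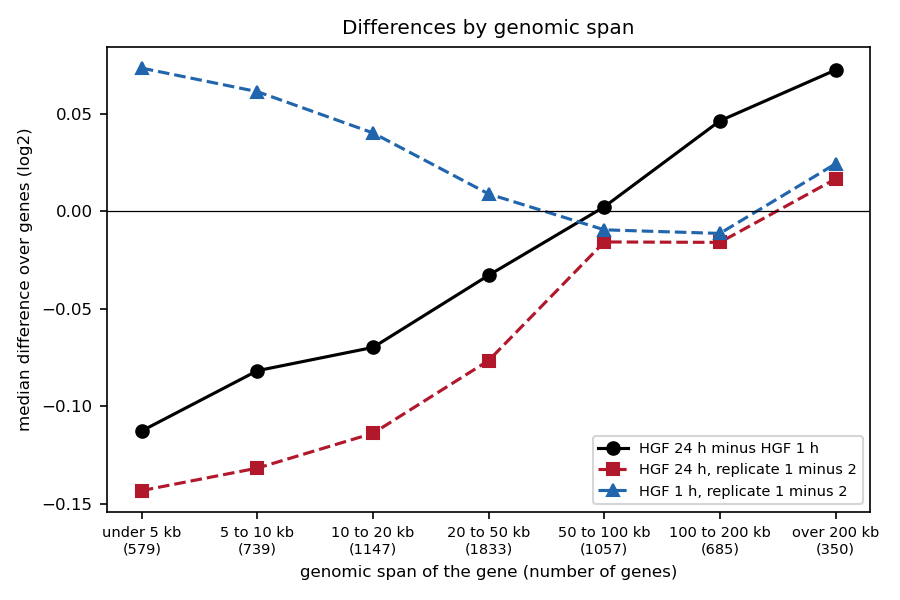
Median difference over genes (log2) in 7 classes of genomic span, for HGF 24 h minus HGF 1 h (black circles) and for the 2 replicates within HGF 24 h (red squares) and within HGF 1 h (blue triangles). The difference between the times runs from -0.11 to 0.07, and the difference between the 24 h replicates from -0.14 to 0.02.

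A gene was called alike when the 95% interval of its difference lay within -0.5 to 0.5. This was so for 3618 of 6390 genes (56.6%) and 5840 of 10176 probe sets (57.4%), while 4335 probe sets were neither called nor alike. The count of alike probe sets was 3139 with HGF 24 h replicate 2 left out, 3665 with HGF 1 h replicate 2 left out and 524 at a margin of 0.3. Cytosolic ribosomal protein genes were alike in 49 of 51 measured, with a median difference of -0.02. Respiratory chain subunits were alike in 44 of 55, actin cytoskeleton and focal adhesion genes in 26 of 35, glycolysis genes in 19 of 27 and lysosomal genes in 23 of 34. The lysosomal list still leaned lower, with a median difference of -0.08. In it 13 genes had both 24 h arrays below both 1 h arrays (38.2%) and 1 had them above (2.94%), beside 23.3% and 16.9% of all genes. Fewer were alike among S phase genes, at 8 of 50, and G2 and M phase genes, at 8 of 63. An interval can reach past the margin through spread between replicates as well as through a difference. As the median deviation of members, the S phase list stood at -0.34 and 0.21 at 24 h and at -0.01 and 0.14 at 1 h. S phase genes lay above in 4% and below in 6%, so their low share alike does not show that the times differed. The translation elongation factor EEF1A1 measured 14.23 and 14.10 at 24 h and 14.15 and 14.19 at 1 h. The actin-severing protein gene CFL1 measured 13.33 and 13.50 at 24 h and 13.37 and 13.39 at 1 h, and the glycolytic aldolase gene ALDOA 13.59 and 13.67 at 24 h and 13.63 and 13.59 at 1 h. NPM1, a nucleolar chaperone, measured 12.46 and 12.36 at 24 h and 12.43 and 12.39 at 1 h, with an interval of -0.25 to 0.24.

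The receptor itself, read at its brightest probe set, was among the genes that could not be told apart but were not alike by this margin. MET measured 8.78 and 8.39 at 24 h and 8.81 and 8.64 at 1 h (difference -0.14, 95% interval -0.59 to 0.31, adjusted p 0.82), and its 3 kept probe sets gave -0.24, -0.14 and -0.05. The probe set at -0.05 had an interval of -0.45 to 0.36, which lay within the margin. Of 18 measured genes in the list of the MET receptor and signalling adaptors, 9 were alike (50%), beside 56.6% of all genes. Among the alike were GAB1 at -0.05, the scaffold gene SHC1 at -0.02 and STAT3 at 0.08. Differences in the list ran from -0.32, in the adaptor gene GRB2, to 0.51. The 5 HGF probe sets did not pass the filter, with means between 2.80 and 6.50 at 24 h and between 2.85 and 6.58 at 1 h.

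Being alike at 1 h and 24 h did not mean being level in between. In the contrast of the 6 h arrays with the mean of 1 h and 24 h, whose weights are orthogonal to those of 24 h minus 1 h, limma called 2621 of 10176 probe sets (25.8%), and 26.1% of genes. Among the 5840 alike probe sets it called 560 higher and 696 lower at 6 h, which is 21.5% of them, against 31.5% of the others. This contrast averages 4 arrays on one side, and its median SE was 0.125 against 0.144 for 24 h minus 1 h.

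Genes that were alike at the first and last time and called lower at 6 h included ATF4, a transcription factor made when protein synthesis is stressed. It measured 12.07 and 12.19 at 24 h and 12.19 and 12.16 at 1 h, against 10.93 and 10.87 at 6 h, a difference of -1.26 from their mean. Of 24 measured ATF4 integrated stress response genes, 15 were called lower at 6 h, where 10.8% of all genes were, and 0 higher. Against 1 h, 5 of them lay above and 4 below at 24 h (20.8% and 16.7%), beside 16.9% and 23.3% of all genes. TRIB3, a pseudokinase induced by ATF4, had 11.09 and 11.04 at 24 h and 11.50 and 10.68 at 1 h, and 9.88 and 9.59 at 6 h. CHAC1, a glutathione-degrading enzyme, was not alike, with 7.95 and 8.45 at 24 h and 9.28 and 8.52 at 1 h. Other alike genes lower at 6 h were the autophagy gene ATG2A, TTLL1, LMCD1, ZCCHC24 and the calcium channel gene ORAI3, by -1.17, -1.15, -1.11, -1.03 and -0.99.

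Alike genes called higher at 6 h included SPHK1, the kinase that makes sphingosine 1-phosphate. SPHK1 measured 8.46 and 8.34 at 24 h and 8.54 and 8.35 at 1 h, against 9.69 and 9.72 at 6 h, a difference of 1.28 (limma adjusted p 0.000428). Untreated cells had 8.50 and 8.25, so only the 6 h arrays stood out among the untreated and HGF arrays. AMMECR1, NAA15, a subunit of the N-terminal acetyltransferase NatA, C6orf120, the dynein light chain gene DYNLL1 and the mitochondrial import gene TIMM17A had 6 h differences of 1.52, 1.36, 1.28, 1.27 and 1.14. Unlike SPHK1, NAA15 had untreated values of 8.79 and 8.70, above its 7.90 and 8.00 at 24 h and its 7.76 and 8.17 at 1 h.

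**Figure D5:**
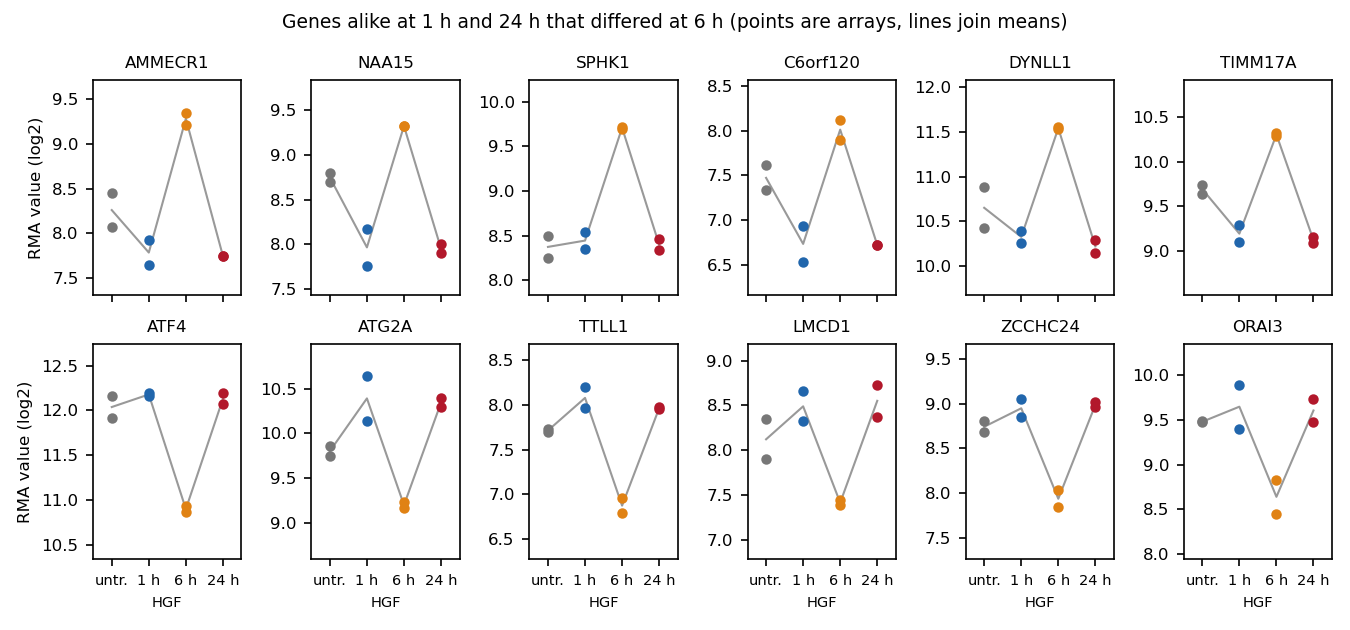
Log2 RMA values of each array of untreated cells and of cells after 1, 6 and 24 h with HGF, for the 6 genes with the largest increases (upper row) and the 6 with the largest decreases (lower row) at 6 h among genes alike at 1 h and 24 h. Points are arrays, lines join the group means, and every panel spans the same number of log2 units.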

How the data were processed

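RNA of MDA-MB-435 cells was hybridised to 10 Affymetrix hgu133a arrays, 2 for each of 5 groups. The authors summarised and normalised the probe data with RMA (affy), so the deposited values are log2. Presence calls were not used. Probe sets were kept where the second-highest of the 10 arrays was at least 7.3, and 68 control probe sets were left out. Of the others 19065 had 1 symbol in the platform annotation, 1043 several and 2107 none. All 10 arrays were fitted together, with a mean per group, in limma 3.58.1 (R 4.3.3), leaving 5 residual degrees of freedom, with variances moderated towards a prior SD of 0.144 with 5.94 degrees of freedom and Benjamini-Hochberg adjustment over the 10176 kept probe sets. The program was tested on simulated data. Dim genes are limited by background signal and every difference by the few arrays.

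Gene lists and members were chosen with earlier results of these data known. Named genes are the largest called differences, from each list the 2 largest differences (none being called) and the 2 with the narrowest bound, the 6 largest each way at 6 h among alike genes, and HGF and MET. The other named genes, among them the members of the signalling lists whose arrays do not overlap, the 12 largest such differences each way and the genes with the lowest adjusted p, were chosen after their values were seen. Alternatives were other filters, scalings, priors, sources of spread, thresholds and margins, the replicate number as a block, and leaving out each array.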

Additional observations from a re-analysis of the deposited data

How the results depend on the processing

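The count of called probe sets was 1 higher and 0 lower and depended on the setting. It was 8 and 2 without a filter, 0 higher with a filter at 8 or on the 4 compared arrays, 4 and 1 after median centring, and 7 and 1 with the mean of the probe sets of a gene. With the spread of the 4 compared arrays it was 36 and 11, of the 6 HGF arrays 14 and 8, and without the ITGB4 arrays 23 and 10. It was 0 higher without the untreated arrays, with a trended and robust prior, without moderation and at an adjusted p under 0.01. The replicate block gave 24 and 2. Deviations of same-numbered arrays correlated between -0.14 and 0.46. The correlations of HGF 1 h with HGF 24 h (-0.14) and with the ITGB4 arrays (-0.11) were negative, the other 8 of the 10 lay between 0.12 and 0.46. The labels name no shared batch and the 2 compared groups go opposite ways, so a pairing was not taken. A block with the HGF 1 h numbers crossed, chosen after seeing the data, gave 66 and 4. Called members of lists numbered 0, and 3 without a filter, after median centring and with gene means, 6 under the block and with the 6 HGF arrays, 14 with the 4 compared arrays and 7 without the ITGB4 arrays. Where an array was left out, the counts ran from 0 to 23 higher and 0 to 10 lower, with 0 to 7 list members. The 23, 10 and 7 came without either ITGB4 array, and each other array left 0 higher and 0 lower. The calls gained without the ITGB4 arrays included EGR1, RHOB, FOSL1, NR4A1, ARID4B and SLC35A1.

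Alike probe sets numbered 5840, and 15138 without a filter, 3816 with gene means and 524 at a margin of 0.3. They ran from 3139, without HGF 24 h replicate 2, to 6093 where an array was left out, and were 3665 without HGF 1 h replicate 2. Of the alike, 560 were higher and 696 lower at 6 h. These were 222 and 326 without moderation, 190 and 130 at a minimum fold of 1.5, 216 and 189 at an adjusted p under 0.01, and 25 and 57 at a margin of 0.3. Where an array was left out they ran from 105 to 758 higher and 69 to 774 lower, with the lowest of both without HGF 6 h replicate 2. Leaving out HGF 6 h replicate 1 gave 162 and 144, HGF 1 h replicate 1 gave 287 and 310, HGF 1 h replicate 2 gave 298 and 451, HGF 24 h replicate 1 gave 313 and 460, and HGF 24 h replicate 2 gave 200 and 275. The causes were not tested. A left-out array leaves its group with 1 array, which is assumed to vary like the others. No called difference changed its direction in any of these settings. Settings of spread, prior, threshold or margin leave the difference itself as it was and could not turn it.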
